A study of Mus musculus with 12 samples.

Results

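The 8 genes described here, Cpt1a, Acadm, Acadl, Acadvl, Hadha, Hadhb, Ppara and Pdk4, are genes of mitochondrial fatty acid oxidation and of its control. They were chosen by name, with earlier results of these data known. All 8 were found among the 14244 gene rows of the deposited table, and all 8 were among the 12808 genes tested, which had a mean of at least 10 normalized counts over the libraries. Poly(A) RNA of gut epithelial cells was sequenced from 5 wild type (WT) mice and 7 mice heterozygous for Chd8 (genotype CHD8+/-, the Chd8L+/- line, which lacks 1 copy of the large isoform of the chromatin remodeler CHD8), with a library for each mouse. All were C57BL/6 male littermates, 8 weeks old. The heterozygous deletion was carried from the germ line by the whole animal, so these libraries do not separate an effect within the epithelium from an effect elsewhere. The values are read counts that were divided by a size factor of each library (normalized counts), and differences between genotypes are given as log2 fold changes of the normalized count plus 1, Chd8L+/- minus WT.

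Fatty acids with long chains enter the mitochondrion as carnitine esters, which CPT1A makes at the outer membrane and CPT2 turns back inside. An acyl-CoA dehydrogenase chosen by chain length then opens each round of oxidation, and the trifunctional protein, built of alpha subunits from Hadha and beta subunits from Hadhb, carries long chains through the remaining steps. PPARA is a nuclear receptor that responds to fatty acids and drives many of these genes, and PDK4 is a kinase that switches off pyruvate dehydrogenase when fat is burned in place of glucose. Intestinal epithelial cells take up fat from the lumen and oxidize part of it. None of the 8 genes makes ketone bodies, and genes for making and using them were read from a separate list.

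The libraries held between 15691662 and 20761315 counted reads. On the first principal component of all genes tested (39.7% of the variance), the library of WT replicate 2 lay at 41.0, among the Chd8L+/- libraries (0.26 to 42.7) and apart from the other WT libraries (-67.5 to -26.2), so the tests on the 8 genes and the counts over the pathway lists are also given without it. That library was singled out from these same values, so leaving it out tends to widen differences between the genotypes. Results without it are a description and not separate support for a difference. Chd8 counted over its whole length was at 953 ± 85.5 normalized counts in WT (SD, n = 5) and 1297 ± 123 in Chd8L+/- (SD, n = 7), with all 7 Chd8L+/- libraries above all 5 WT libraries. WT replicate 2, at 1050, was below the lowest Chd8L+/- library, at 1084. A count over the whole gene does not separate the deleted exons, so it does not by itself check the genotype of a library. Enterocyte markers were abundant in each library, with the summed level of 11 markers between 334929 and 900499 normalized counts. In bulk RNA, a smaller number of cells of a type and less RNA per cell cannot be told apart.

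Compared per kilobase of the principal transcript, the enzymes after the carnitine step had the highest levels in WT. Acadm at 1283 ± 146, Hadha at 1282 ± 118, Hadhb at 1248 ± 146 and Acadl at 1153 ± 124 normalized counts per kb (SD, n = 5) lay together, and their ranges overlapped. Acadvl, for the longest chains, was lower at 853 ± 118, with its highest WT library (955) below the lowest of Acadl (1034). Cpt1a was at 415 ± 92.4 normalized counts per kb, below every WT library of Acadvl. The regulators were the lowest, Ppara at 64.1 ± 28.6 and Pdk4 at 49.3 ± 34.9 normalized counts per kb, and these overlapped. In Chd8L+/- the means were 1263 ± 135 for Hadha, 1095 ± 105 for Acadm, 1050 ± 109 for Acadl and 1017 ± 86.2 for Hadhb (SD, n = 7), again with overlapping ranges. Cpt1a, at 579 ± 87.7 normalized counts per kb, overlapped Acadvl at 734 ± 137 there, which it did not do in WT.

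**Figure D1:**
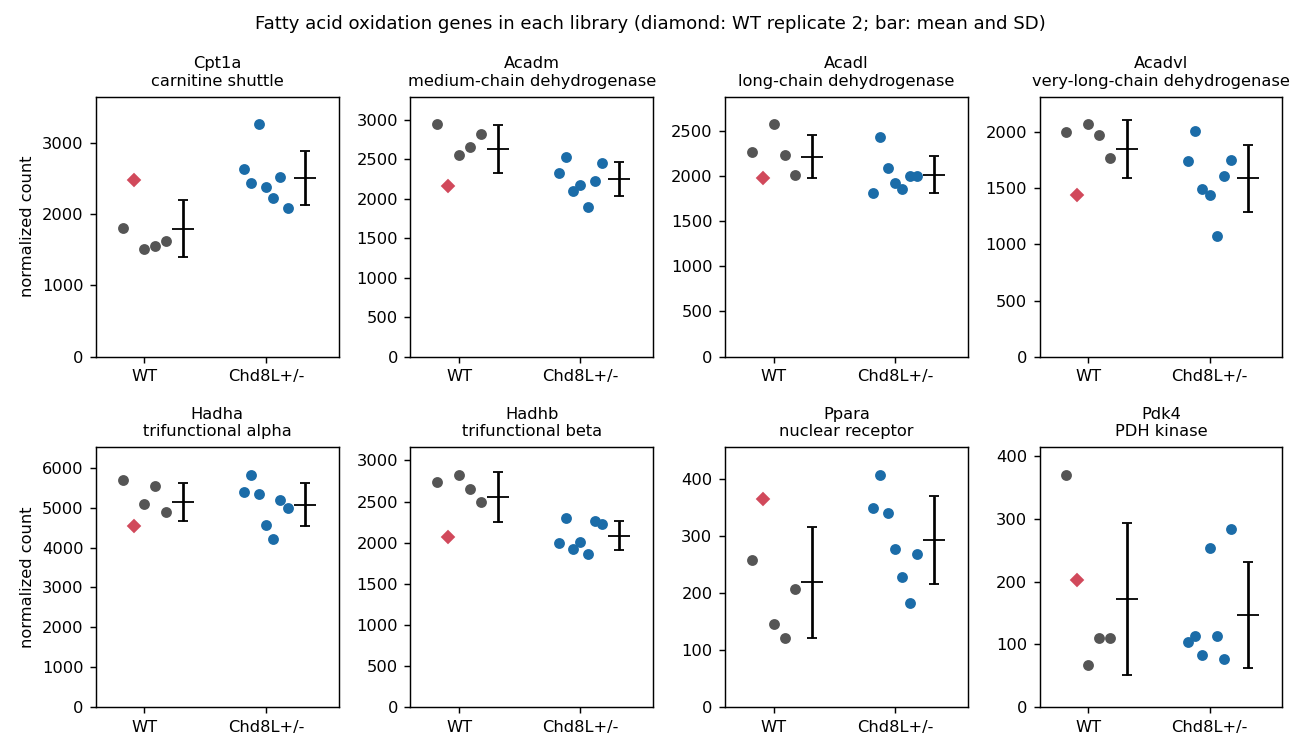
Normalized counts of the 8 genes in each library (points), with the group mean and SD (bars), for 5 WT and 7 Chd8L+/- mice; the diamond is WT replicate 2 and each vertical axis starts at 0. For Cpt1a, Acadm and Hadhb, WT replicate 2 sits among the Chd8L+/- libraries, and the other 4 WT libraries do not overlap them.

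None of the 8 genes passed an adjusted p of 0.05 between the genotypes over all 12 libraries (limma, Benjamini-Hochberg over the 12808 genes), where 0.0234% of all genes tested did. At an unadjusted p of 0.05 or less, Cpt1a was higher and Hadhb lower, 2 of 8 genes, against 24.3% of all genes tested. DESeq2 on the recovered reads called 1 of the 8, Cpt1a, against 6.41% of genes, and edgeR called 0 of 8, against 0.039%, with the same 2 genes at an unadjusted p of at most 0.05. Without WT replicate 2, limma called 4 of 8, Cpt1a and Ppara higher and Acadm and Hadhb lower, against 27.6% of all genes tested. Of the 8, 3 were without overlap between the genotypes once that library was left out (Cpt1a higher, Acadm and Hadhb lower), against 14.4% of all genes tested. The median log2 fold change of the 8 genes was -0.14, and that of all genes tested was 0.01. Under quantile normalization, which gives each library the same distribution of values, the median of the 8 was -0.04 and 4 of 8, in place of 6 of 8, were lower in Chd8L+/-.

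**Figure D2:**
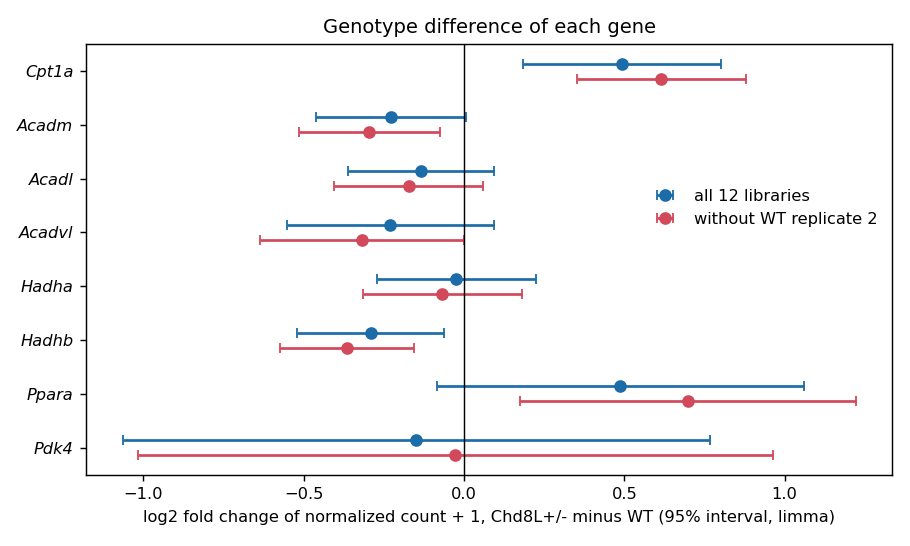
Log2 fold change of each gene (Chd8L+/- minus WT, normalized count plus 1) with its 95% interval from limma, over all 12 libraries and without WT replicate 2. Over all libraries the intervals of Cpt1a (0.18 to 0.80) and Hadhb (-0.52 to -0.06) leave out 0, and those of the other 6 genes include it.

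Cpt1a (chr19:3322334-3385733, plus strand, GRCm38) encodes the carnitine palmitoyltransferase of the outer membrane, the step that limits how fast long chains enter. Its normalized counts in WT replicates 1 to 5 were 1803, 2476, 1512, 1543 and 1624. In Chd8L+/- the lowest was 2076, the median 2437 and the highest 3253. WT replicate 2 lay inside the Chd8L+/- range, while all 7 Chd8L+/- libraries were above the other 4 WT libraries. The log2 fold change was 0.49 (SE 0.14), which did not pass adjustment (limma, adjusted p = 0.121; 0.0051 to 0.344 over the alternatives). DESeq2 gave an adjusted p of 0.0415. Without WT replicate 2 the log2 fold change was 0.62, with a limma adjusted p of 0.0051. Under quantile normalization it was 0.62, with a limma adjusted p of 0.147. The meaning of the letter that opens each library name is not given in the sources used here. It put 2 WT and 2 Chd8L+/- libraries under A, 2 and 1 under B, and 1 and 3 under C. Chd8L+/- replicate 7 was alone under D, without a WT library, and so is in no value within letters. Within letters A, B and C Cpt1a was higher in Chd8L+/- by 0.39, 0.49 and 0.74 on the log2 scale, without a test at these numbers.

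The sequence directly upstream of Cpt1a is shown because it is the only member promoter here that holds both letters searched for nuclear receptors and GC boxes. It lies before the start of the principal transcript, inside the first intron of a longer annotated transcript. In capitals are the half-site AGGTCA, which nuclear receptors such as PPARA with its partner RXR bind in repeats, and the GC box GGGCGG, each on either strand. The sequence is from RefSeq on GRCm38.p6, plus strand, chr19:3323051-3323284, 5′ to 3′.
Cpt1a upstream: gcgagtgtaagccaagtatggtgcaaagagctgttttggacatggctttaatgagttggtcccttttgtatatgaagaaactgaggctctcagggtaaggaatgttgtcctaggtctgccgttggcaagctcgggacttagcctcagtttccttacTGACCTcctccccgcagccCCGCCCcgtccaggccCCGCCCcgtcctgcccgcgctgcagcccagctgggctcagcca

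The acyl-CoA dehydrogenase genes Acadm, Acadl and Acadvl cover the chain lengths. Acadm (chr3:153922357-153944632, minus strand), for medium chains, was at 2938, 2163, 2556, 2657 and 2821 normalized counts in WT replicates 1 to 5. In Chd8L+/- it ran from 1894 over a median of 2221 to 2525. The lowest WT value was again that of replicate 2, and the other 4 WT libraries were above all 7 Chd8L+/- libraries. The log2 fold change was -0.23 (SE 0.11, 95% interval -0.46 to 0.0076), with a limma adjusted p of 0.218, and -0.29 without WT replicate 2, with a limma adjusted p of 0.0476. Under quantile normalization it was -0.09, with a limma adjusted p of 0.594. Within letters A, B and C it was lower in Chd8L+/- by log2 differences of -0.24, -0.53 and -0.12.

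The promoter of Acadm is shown beside that of Cpt1a because both hold the half-site (capitals). It lies upstream of the annotated start on chr3:153944644-153944893, GRCm38.p6, and is written along the minus strand, 5′ to 3′, from RefSeq.
Acadm upstream: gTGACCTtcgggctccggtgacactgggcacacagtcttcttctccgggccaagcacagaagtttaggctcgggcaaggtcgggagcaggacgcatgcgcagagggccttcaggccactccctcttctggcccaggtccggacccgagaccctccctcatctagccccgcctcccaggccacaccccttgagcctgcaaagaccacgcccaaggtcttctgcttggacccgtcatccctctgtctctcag

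Over windows of 300 bases around the starts of 32851 RefSeq promoters, AGGTCA on either strand was found in 16.3% and in 3 of 8 members (Cpt1a, Acadm and Acadvl). The direct repeat of AGGTCA with 1 base between, the form that PPARA with RXR is known to bind, was in 0.0396% of promoters and in 0 of 8 members. GGGCGG was in 35.7% of promoters and in 5 of 8 members, CCAAT in 37.4% and 2 of 8, and TATAAA in 13.6% and 0 of 8. These are matches of letters in these windows, and no binding was measured.

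Acadl (chr1:66830839-66863277, minus strand), for long chains, was at 2263, 1981, 2568, 2232 and 2004 normalized counts in WT and between 1809 and 2434 in Chd8L+/-, with a median of 1993. The groups overlapped, with 3 of the 7 Chd8L+/- libraries below every WT library. Its log2 fold change of -0.13 (95% interval -0.36 to 0.09) had a limma adjusted p of 0.443. It was -0.17 without WT replicate 2 (limma adjusted p = 0.254) and 0.00037 under quantile normalization.

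Acadvl (chr11:70010183-70015411, minus strand), for very long chains, was at 2002, 1438, 2071, 1973 and 1768 normalized counts in WT. In Chd8L+/- it ran from 1073 over a median of 1607 to 2015. The log2 fold change of -0.23 (95% interval -0.55 to 0.09) had a limma adjusted p of 0.349, and 0.125 without WT replicate 2, where it was -0.32. Under quantile normalization it was -0.11. Its 3′ end overlaps that of Dvl2 on the opposite strand, which holds 14% of the 75-base words of its transcript. As the use of strand in the counting is not given in the sources used here, reads from the overlap cannot be assigned, so its value is uncertain to that extent.

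Hadha (chr5:30118304-30155162, minus strand) and Hadhb (chr5:30155248-30184593, plus strand) start back to back and encode the alpha and beta subunits of the same enzyme complex. The alpha subunit carries the hydratase and dehydrogenase steps, and the beta subunit the thiolase step. Their annotated starts are separated by 85 bases, which are shown because the ratio of this pair was without overlap between the genotypes over all 12 libraries. The spacer lies on chr5:30155163-30155247 and is written along the plus strand (RefSeq, GRCm38.p6), with GC boxes in capitals; 69.4% of its bases are G or C, and it holds 2 GC boxes and no AGGTCA.
Hadha-Hadhb spacer: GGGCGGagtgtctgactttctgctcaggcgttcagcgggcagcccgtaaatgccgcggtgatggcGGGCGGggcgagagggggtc

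Hadha was at 5702, 4540, 5085, 5540 and 4881 normalized counts in WT. In Chd8L+/- it ran from 4216 over a median of 5185 to 5826. The genotypes could not be separated, with a log2 fold change of -0.02 (SE 0.12, 95% interval -0.27 to 0.22; limma adjusted p = 0.914), which was 0.22 under quantile normalization and -0.07 without WT replicate 2 (limma adjusted p = 0.691).

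Hadhb was at 2741, 2069, 2825, 2654 and 2489 normalized counts in WT, and in Chd8L+/- from 1857 over a median of 2012 to 2298. Of the 7 Chd8L+/- libraries, 4 were below every WT library, and all 7 were below the 4 WT libraries other than replicate 2. The log2 fold change was -0.29 (SE 0.11, 95% interval -0.52 to -0.06), with a limma adjusted p of 0.139, and -0.36 without WT replicate 2, with a limma adjusted p of 0.0161. Under quantile normalization it was -0.15. Within letters A, B and C the log2 differences were -0.27, -0.47 and -0.37.

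The ratio of Hadha to Hadhb within a library does not depend on the size factor of that library. It was 2.08, 2.19, 1.80, 2.09 and 1.96 in WT replicates 1 to 5. In Chd8L+/- replicates 1 to 7 it was 2.70, 2.53, 2.77, 2.27, 2.27, 2.29 and 2.24. All 7 Chd8L+/- libraries were above all 5 WT libraries, WT replicate 2 included. Of single genes, 0.515% were without overlap between the genotypes over the 12 libraries, and 0 of the 8 were. A ratio is another measure than a single count, and the share over ratios of other gene pairs was not computed. The mean log2 ratio was 1.01 ± 0.11 in WT (SD, n = 5) and 1.28 ± 0.13 in Chd8L+/- (SD, n = 7), a difference of 0.27 (exact permutation test over the 12 libraries, two-sided, p = 0.00126, which is the smallest possible here). With each library left out in turn, the difference was between 0.22 and 0.30, with exact p between 0.00216 and 0.0182. Under quantile normalization, an alternative added after the data were seen, it was 0.37, with 6 of 7 Chd8L+/- libraries above all WT libraries (exact permutation p = 0.00253). Within letters A, B and C it was 0.23, 0.17 and 0.47.

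Reads of Hadhb are harder to place than those of Hadha. Of the 75-base words of the principal Hadhb transcript, 57.2% also occur in transcripts of the pseudogenes Gm13910 or Gm9108, against 0.0254% of Hadha words in another gene. Neither pseudogene has a row among the genes analysed, and how reads with several matches were counted is not given in the sources used here. The part of this sharing in the ratio was not tested.

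**Figure D3:**
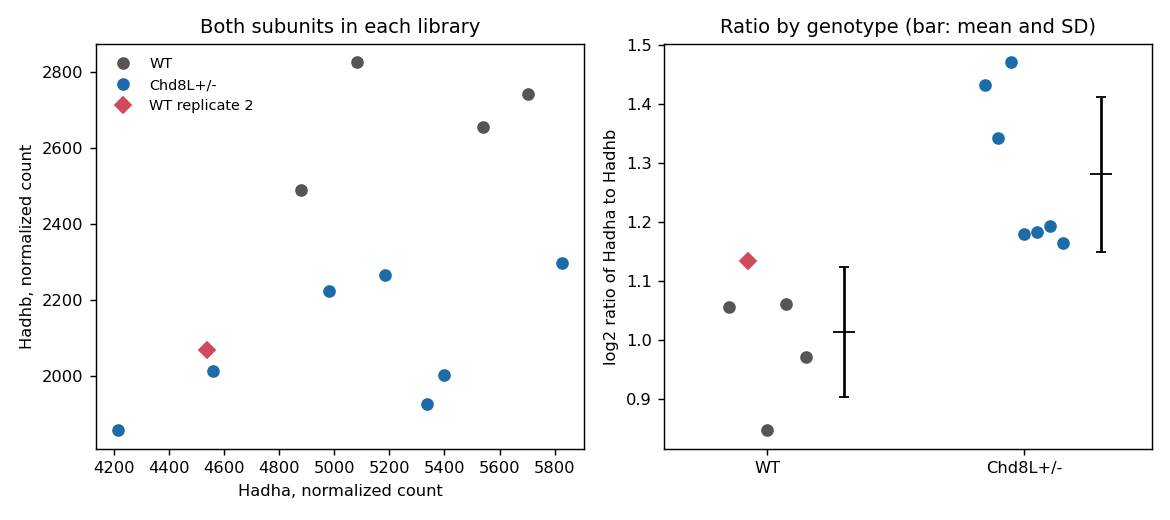
Left, normalized counts of Hadha and Hadhb in each library; right, their log2 ratio by genotype with the mean and SD (bars), for 5 WT and 7 Chd8L+/- mice, with WT replicate 2 as a diamond. The Chd8L+/- ratios (mean 1.28) all lie above the WT ratios (mean 1.01), while the Hadha counts overlap.

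The regulators varied more between mice of the same genotype than the enzymes did. Ppara (chr15:85734983-85802819, plus strand) was at 258, 364, 145, 120 and 207 normalized counts in WT, and in Chd8L+/- from 182 over a median of 277 to 407. The highest WT value was that of replicate 2. Its log2 fold change of 0.49 had an SE of 0.27 and a 95% interval from -0.08 to 1.06 (limma adjusted p = 0.268). Without WT replicate 2 it was 0.70, with a limma adjusted p of 0.0471, and under quantile normalization 0.36, with a limma adjusted p of 0.414. Within letters A, B and C it was 0.005, 0.53 and 1.02.

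Pdk4 (chr6:5483351-5496309, minus strand) was at 371, 202, 66.5, 110 and 110 normalized counts in WT, and in Chd8L+/- from 76.5 over a median of 113 to 284. WT replicate 1 was the highest of all 12 libraries and WT replicate 3 the lowest. The log2 fold change was -0.15 with a 95% interval from -1.06 to 0.77 (limma adjusted p = 0.855), and it was 0.19 without WT replicate 1, -0.03 without WT replicate 2 and -0.27 under quantile normalization. A difference in Pdk4 of the size seen for Cpt1a lies inside this interval and was not detectable in these libraries.

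How the 8 genes varied together was read over the mice. Pearson's r of log2 normalized counts was computed for the 28 pairs over the 12 libraries, each with a permutation test (100000 resamples, adjusted over the 28). Of these, 9 passed, 7 positive and 2 negative, and among the 10 pairs of the enzymes after the carnitine step 6 passed. Shares among pairs of other genes were not computed, so no count of passing pairs here sets the 8 genes apart from others. Acadm and Hadhb had r = 0.87 (rho = 0.89, permutation p = 0.0003, adjusted 0.0045). Acadvl followed Acadm (r = 0.87), Hadhb (r = 0.82) and Hadha (r = 0.82). Cpt1a ran against Hadhb (r = -0.83, rho = -0.73, permutation p = 0.0013, adjusted 0.0071) and Acadm (r = -0.70, rho = -0.68, adjusted permutation p = 0.0383), and with Ppara (r = 0.75, rho = 0.68, adjusted permutation p = 0.0198). These p values are for r. For rho of Cpt1a the adjusted permutation p was 0.0457 with Hadhb, 0.0562 with Acadm and 0.0562 with Ppara. Hadha and Hadhb themselves had r = 0.51 (rho = 0.44, adjusted permutation p = 0.181).

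Part of these values is the difference between genotypes, so r was also computed on deviations from the genotype means. There 5 of 28 pairs passed: Acadm with Acadvl (r = 0.86), Hadha (r = 0.74) and Hadhb (r = 0.78), and Acadvl with Hadha (r = 0.86) and Hadhb (r = 0.83). Cpt1a against Hadhb was at r = -0.63 (adjusted permutation p = 0.0741) and Cpt1a with Ppara at r = 0.68 (adjusted permutation p = 0.0513). Cpt1a against Acadm was at r = -0.45 (adjusted permutation p = 0.301). Without the 2 libraries farthest from the median of the gene on the x axis, no pair passed the adjustment, at r = 0.81 for Acadm with Hadhb, 0.81 for Acadm with Acadvl and 0.82 for Acadvl with Hadhb (adjusted permutation p = 0.0532 for each). For Cpt1a, r was -0.71 against Hadhb and 0.51 with Ppara when WT replicates 3 and 4 were left out. The relation with Ppara was thus weaker without those libraries (adjusted permutation p = 0.312) than over all libraries (r = 0.75).

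**Figure D4:**
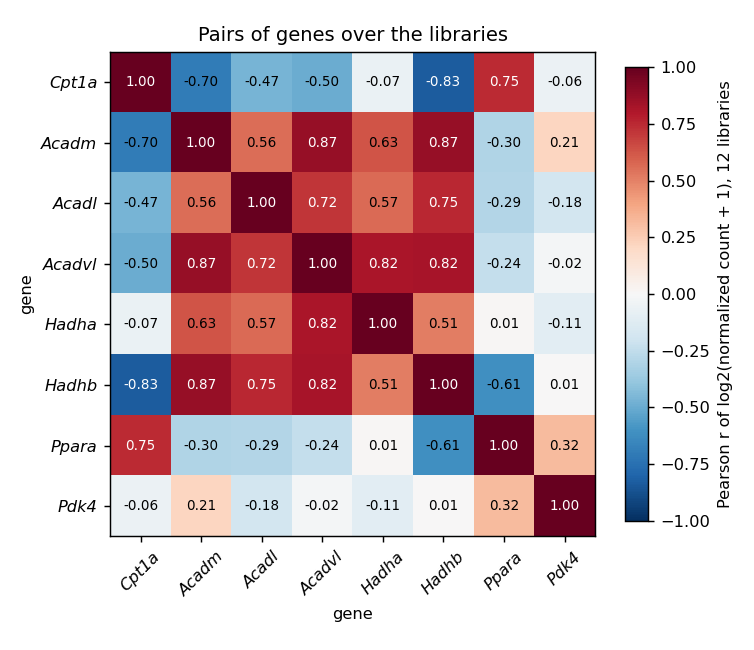
Pearson's r of log2(normalized count + 1) over the 12 libraries for each pair of the 8 genes, with red for positive and blue for negative values. The block of Acadm, Acadl, Acadvl, Hadha and Hadhb is positive throughout (0.51 to 0.87), and Cpt1a is at -0.83 with Hadhb and 0.75 with Ppara.

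For each gene, the 3 genes of the whole table with the most alike pattern were taken by Pearson's r over the 12 libraries, as a description. Acadvl was closest to Acad11 (r = 0.99), an acyl-CoA dehydrogenase of longer chains, with Dusp16 (0.98) and Shpk (0.97) next. Acadm was closest to Hccs (0.98), which attaches heme to cytochrome c, then to the malate dehydrogenase Mdh1 (0.96) and Zcchc9 (0.95). Hadhb was closest to Slc25a3 (0.96), the mitochondrial phosphate carrier, the mitochondrial creatine kinase Ckmt1 (0.96) and the galactose enzyme Galt (0.96). The nearest genes of Hadha were others, Lpar5 (0.94), Wasf2 (0.91) and Kpna1 (0.90). Cpt1a was closest to the transcription factor gene Foxk1 (0.98), the nuclear pore gene Nup160 (0.98) and Naa25 (0.97). Ppara was closest to Bdp1, Maoa and Slc5a12 (0.93 each), Acadl to Dnah17, Bin1 and Med27 (0.86 each), and Pdk4 to the cytochrome P450 genes Cyp3a41b and Cyp3a41a (0.87 each) and Rnf166 (0.86). Cyp3a41a and Cyp3a41b are near-identical copies, so their counts are uncertain.

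The surrounding pathways were read from 8 lists with 110 genes, of which 105 were tested. In limma over all 12 libraries, 0 of the 105 passed an adjusted p of 0.05. At an unadjusted p of 0.05 or less, 25 were lower and 7 higher in Chd8L+/-, against 11.8% and 12.5% of all genes tested. This split depended on the scaling, with 6 lower and 11 higher under quantile normalization. DESeq2 called 6 of them, 5 lower and 1 higher, against 6.41% of its genes. Without WT replicate 2, limma called 26 lower and 8 higher of the 105. Of all 12807 genes tested there, it called 1745 lower and 1789 higher, 27.6% in either direction. Quantile normalization was not run without that library. By list, the calls without it were 5 lower and 0 higher for uptake and activation, and 2 and 3 for the other mitochondrial enzymes. They were 5 and 0 for peroxisomal genes, and 1 and 0 for ketone bodies. For PPAR partners and targets they were 3 lower and 1 higher, for malonyl-CoA 1 and 2, for pyruvate dehydrogenase 1 and 0, and for the tricarboxylic acid cycle 8 and 2.

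Of 14 tested genes for the uptake and activation of fatty acids and for the rest of the carnitine shuttle, 2 were lower and 0 higher at an unadjusted p of at most 0.05, with a median log2 fold change of -0.25. Under quantile normalization these were 2 lower and 2 higher, with a median of -0.16. Fabp1, the liver-type fatty acid binding protein, averaged 30482 ± 8526 normalized counts in WT (SD, n = 5) and 15182 ± 6748 in Chd8L+/- (SD, n = 7). Its log2 fold change was -1.08 (limma adjusted p = 0.121, and 0.0119 without WT replicate 2, where all 7 Chd8L+/- libraries were below the other 4 WT libraries). Cpt2, the partner of CPT1A inside the mitochondrion, had a log2 fold change of 0.05 (limma adjusted p = 0.841), with 1699 ± 198 and 1774 ± 303 normalized counts.

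Of the 16 other mitochondrial oxidation enzymes, 3 were lower and 2 higher at an unadjusted p of at most 0.05, with a median of -0.03 that was 0.04 under quantile normalization. Decr1, the reductase for unsaturated chains, had the smallest p, with 2485 ± 192 normalized counts in WT and 1905 ± 213 in Chd8L+/-. Of the 7 Chd8L+/- libraries, 6 were below every WT library (log2 fold change -0.39, limma adjusted p = 0.121, and 0.0117 without WT replicate 2). The enzymes that take shorter chains through the same steps as the trifunctional protein had log2 fold changes of -0.34 for the hydratase Echs1, -0.21 for the dehydrogenase Hadh and 0.48 for the thiolase Acaa2 (limma adjusted p = 0.145, 0.399 and 0.250, and 0.0503, 0.226 and 0.0538 without WT replicate 2). Hadh was at 0.04 under quantile normalization.

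Of 15 tested peroxisomal genes, 4 were lower and 0 higher at an unadjusted p of at most 0.05, with a median of -0.11. Under quantile normalization 0 were lower and 1 higher, with a median of -0.09. The thiolase Acaa1b had the smallest p, at 1863 ± 244 and 1511 ± 219 normalized counts (log2 fold change -0.31, limma adjusted p = 0.181, and 0.0396 without WT replicate 2).

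Of 8 genes for making and using ketone bodies, 1 was lower and 0 higher at an unadjusted p of at most 0.05, with a median of -0.24. Bdh1, the dehydrogenase that interconverts the ketone bodies, had a log2 fold change of -0.15 (limma adjusted p = 0.582). Oxct1, which consumes ketone bodies, was at 7676 ± 4215 normalized counts in WT and 3356 ± 913 in Chd8L+/- (log2 fold change -1.02, limma adjusted p = 0.127, and 0.0049 without WT replicate 2).

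Of 16 tested PPAR partners and targets, 3 were lower and 1 higher at an unadjusted p of at most 0.05, with a median of -0.15. Under quantile normalization 1 was lower and 2 higher, with a median of -0.04. Acot1, a cytosolic thioesterase known as a target of PPARA, had the smallest p, at 79.7 ± 21.2 and 125 ± 34.8 normalized counts (log2 fold change 0.63, limma adjusted p = 0.128, and 0.0234 without WT replicate 2). Among 8 genes that set malonyl-CoA, the inhibitor of CPT1A, 1 was lower and 2 higher. Prkag1, a subunit of the AMP-activated kinase, averaged 593 ± 101 in WT and 437 ± 39.1 normalized counts in Chd8L+/- (log2 fold change -0.43, limma adjusted p = 0.121, and 0.0052 without WT replicate 2).

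Of 11 genes of pyruvate dehydrogenase and its control, the target of PDK4, 2 were lower and 1 higher at an unadjusted p of 0.05 or less. Pdpr, a regulator of the phosphatase that opposes the kinases, was at 241 ± 56.2 and 340.0 ± 79.5 normalized counts (log2 fold change 0.49, limma adjusted p = 0.164, and 0.0509 without WT replicate 2). Under quantile normalization 0 genes of this list were lower and 0 higher at that p. Of 17 genes of the tricarboxylic acid cycle, which burns the acetyl-CoA that oxidation yields, 9 were lower and 1 higher, with a median of -0.31. Under quantile normalization 0 were lower and 2 higher at that p, with a median of -0.09. Sdhc, a membrane subunit of succinate dehydrogenase, was at 4713 ± 645 and 3485 ± 591 normalized counts (log2 fold change -0.44, limma adjusted p = 0.125, and 0.0118 without WT replicate 2).

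**Figure D5:**
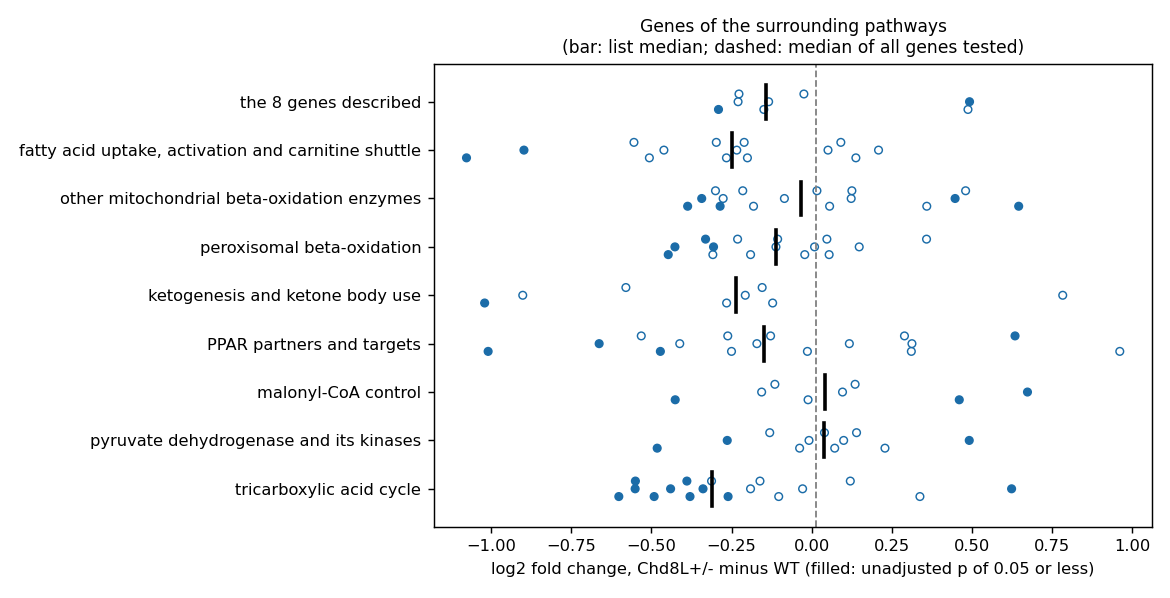
Log2 fold change (Chd8L+/- minus WT) of the 8 genes and of each gene tested in the 8 surrounding lists; filled points have an unadjusted p of 0.05 or less, bars are list medians and the dashed line is the median of all genes tested (0.01). The medians run from -0.31 for the tricarboxylic acid cycle to 0.04 for malonyl-CoA control and pyruvate dehydrogenase.

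Marker levels of several cell types differed between the libraries in the same arrangement. Markers of crypt and dividing cells were higher in Chd8L+/- for 10 of 10 genes (median log2 fold change 0.80), with summed levels of 5813 to 21111 normalized counts in WT, where replicate 2 was the highest, and of 13292 to 24046 in Chd8L+/-. Enterocyte markers were lower for 10 of 11 genes (median -0.31), with sums of 386189 to 900499 in WT, where replicate 2 was the lowest, and of 334929 to 809126 in Chd8L+/-. Tuft cell markers were lower for 7 of 7 (median -1.78), with sums of 2039 to 19135 and 1185 to 8349 normalized counts, and Il25 at 0 in some libraries. Stromal markers were higher for 6 of 6 tested (median 1.72) but low, with sums of 130 to 484 and 219 to 1531 normalized counts, and Col1a2, Col3a1 and Pdgfra at 0 in some libraries. Myeloid markers were higher for 7 of 7 (median 0.63) and lymphocyte markers lower for 8 of 8 (median -0.26). Goblet cell markers were lower for 5 of 6 (median -0.29) and Paneth cell markers for 3 of 4 (median -0.44), with enteroendocrine markers at a median of 0.07. Markers of the distal small intestine, whose sums ran from 11361 to 37772 in WT and from 4212 to 54269 in Chd8L+/-, and of the colon, from 6107 to 21044 and from 6693 to 28553, varied within both genotypes. No marker passed an adjusted p of 0.05 in limma over the 12 libraries, where 24.3% of all genes tested had an unadjusted p of at most 0.05. At that p there were 7 of 7 tuft cell, 5 of 10 crypt, 4 of 6 stromal, 2 of 6 goblet cell, 2 of 7 colon (1 lower and 1 higher) and 1 of 4 Paneth cell markers. There was 1 each of 11 enterocyte, 8 lymphocyte, 7 myeloid and 7 enteroendocrine markers, and 0 of 7 for both the proximal and the distal small intestine. The part of cell makeup or of gut region in the values of Cpt1a, Acadm, Hadhb and Ppara and in the ratio of Hadha to Hadhb was not tested.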

How the data were processed

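Each of the 12 libraries was made from poly(A) RNA of the gut epithelial cells of a separate mouse (5 WT, 7 Chd8L+/-) and read as single ends of 75 bases. Tophat2 was the mapper and mm10 the genome, and genotypes were compared by the authors with DESeq2. The unit of the deposited table is a signal, namely the reads of a gene after division by the size factor of its library. How reads were counted on genes, with which annotation and whether by strand, is not given in the sources used here. All 12 columns were matched to the mice by library name, and 21 rows whose names a spreadsheet had turned into dates were not named.

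The test was limma 3.58.1 (R 4.3.3, lmFit, then eBayes with a trend), two-sided, on log2(value + 1). It was run where the mean value reached 10, with Benjamini-Hochberg adjustment and a threshold of 0.05. As 100% of values were whole multiples of 1 read (within 0.01 reads), reads were recovered for edgeR 4.0.16 and DESeq2 1.42.0 as alternatives. Recovered totals were 15691662 to 20761315 reads, and the relative counting error is largest for Pdk4 and Ppara, which had the fewest reads of the 8 genes. The ratio of Hadha to Hadhb was tested by an exact permutation over the 12 libraries, and pairs of genes by permutation (numpy 2.4.6, scipy 1.17.1). The fits of limma, edgeR and DESeq2, but not the permutation tests, were also run on simulated counts without an outlying library. Positions and principal transcript lengths are from GENCODE M21 (GRCm38, the build that mm10 names), and promoters from RefSeq (GRCm38.p6); the annotation used by the authors may differ. The alternatives were other pseudocounts (0.5 and 5), tests without the filter or with 10 demanded of each library, quantile normalization, both count tools, a block on replicate number or on library letter, and each library left out.

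Named are the 8 genes, in each pathway list any gene past the threshold and the gene with the smallest p, enzymes of ketone body synthesis and of the long-chain route fixed by name (some are not reported here), and for each of the 8 the 3 genes most alike. The genes, lists and tests were chosen with earlier results of these data known.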

Additional observations from a re-analysis of the deposited data

Results flagged for a closer look

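Examined were 48 sets of values, each a named gene in the libraries of 1 genotype, without the genes taken as most alike. Of these sets, 1 held a library that stood far from the rest of its group, where about 2.4 would by chance. This was Sdhc in WT replicate 2, at 11.8 on the log2(value + 1) scale (3576 normalized counts), with the other WT libraries between 4844 and 5133 normalized counts. The gap to the nearest library was 0.84 of the range of the group. No cause was tested.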

How the results depend on the processing

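The limma count of 3 genes past the threshold among 12808 became 5 in edgeR, 805 in DESeq2 and 451 with a block on the library letter, and it was between 0 and 3534 with each library left out, the highest without WT replicate 2. Without any other library it was at most 8. For the 8 genes, 0 in limma became 1 in DESeq2 (Cpt1a) and 0 to 4 with a library left out. For the pathway lists, 0 became 6 in DESeq2, 3 with the letter block and 0 to 34 with a library left out. Whether the replicate numbers pair the mice is not given in the sources used here. Same-numbered libraries deviated from their group means with r of 0.19, -0.34, -0.13, -0.17 and -0.23, which cannot by itself settle whether mice were paired. With the replicate block, 0 genes passed in limma (2327 at an unadjusted p of 0.05), and 0 of the 8 (3 at that p). Quantile normalization turned the direction of Acadl (0.00037), Hadha (0.22) and Hadh (0.038). Leaving out 1 library moved Hadha between -0.068 and 0.019 (0.014 without WT replicate 1, 0.0034 without WT replicate 4, 0.00015 without Chd8L+/- replicate 4) and Pdk4 between -0.42 and 0.19. Of the 28 pair correlations 9 passed, 5 on deviations from genotype means and 0 without the 2 farthest libraries. The cause of these changes was not tested. The other settings kept the direction of the 8 genes and of each named pathway gene, and of the counts, medians and ratios under alternatives, 79 stayed on the side or within 1.5 times of the reported value and 22 did not. For genes with few reads, Pdk4 above all, the spread between mice limits what can be seen.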
